A study of Capra hircus with 24 samples.

Results

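The protein coat of the milk fat globule is represented on the array by probes for 7 genes: PLIN2, CIDEA, BTN1A1, XDH, FABP3, MFGE8 and MUC1. The genes were chosen as a list of 8 cattle RefSeq transcripts, and every probe that was not a control and carried a listed identifier was taken, which gave 7 of the array's 26748 transcript identifiers and 19 of its 43653 probes. PLIN2 (NM_173980) and XDH (NM_173972) have 1 probe each, MFGE8 (NM_176610) has 2, BTN1A1 (NM_174508) and FABP3 (NM_174313) have 3 each, CIDEA (NM_001083449) has 4 and MUC1 (NM_174115) has 5. The listed CD36 transcript (NM_174010) has 0 probes, so the fatty acid translocase CD36 was not measured here.

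Milk fat leaves the secretory cell as a droplet that becomes wrapped in the apical plasma membrane, so that the globule carries a membrane and often a thin crescent of cytoplasm with RNA of the cell that made it. PLIN2 and CIDEA sit on the lipid droplet inside the cell, the first as its coat protein and the second as a factor in droplet fusion and secretion. The transmembrane protein BTN1A1 (butyrophilin) and the cytosolic enzyme XDH (xanthine dehydrogenase) join with PLIN2 at the apical membrane, FABP3 carries fatty acids in the cytosol, and MFGE8 (lactadherin) and the mucin MUC1 are glycoproteins of the globule surface.

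RNA came from 8 healthy female goats in their 3rd lactation, of which 4 were Polish White Improved (PWI) and 4 were Polish Fawn Improved (PFI) animals. Each breed was sampled in 3 sources, milk somatic cells (MSC, whole cells found in milk), milk fat globules (MFG) and peripheral nuclear cells of blood (PNCB), which made 6 groups of 4 arrays and 24 arrays in all. No treatment, deletion or transgene is named for any group, and age is given only as the number of the lactation. Cy5 carried the goat sample on each array, Cy3 carried a common reference, and the dyes were never swapped. That reference was a pool of RNA from nuclear blood cells of 7 healthy goats, 4 PWI and 3 PFI, in the 4th lactation and taken after milking had ended. The array was designed for cattle, so a probe can read low where goat sequence differs from cattle sequence, and how often this happened was not tested.

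The median share of probes with Cy5 well above background was 57.1% on MSC arrays, 63.2% on PNCB arrays and 48.1% on MFG arrays. The MFG arrays of PWI goats 2 and 4 stood apart from the other MFG arrays with 84.6% and 75.3%, and the lowest spike-in slopes were those of MFG from PWI goat 2 (0.489) and PNCB from PWI goats 4 and 3 (0.567 and 0.645). Each group lay on a slide of its own, so neither breed nor source can be told apart from slide. MFG arrays were scanned on a day of their own, so MFG and its scan day cannot be told apart. MSC and PNCB arrays shared a scan day, whereas blood was extracted with a different kit from milk, so kit and blood cannot be told apart. The gene names of other probes are not paired with identifiers in the files used here, so the labelled cell types were not checked against marker genes. In these bulk samples, fewer cells of a type and less RNA per cell cannot be told apart.

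Each of the 18 probes tested was higher in both milk sources than in blood. A probe entered the test where Cy5 stood well above background throughout the 4 arrays of some group, and the probe left out, MUC1 A_73_P101311, met that mark on 1 MSC array, 0 PNCB arrays and 2 MFG arrays. The comparison of MFG with PNCB called 18 of 18 probes higher at an adjusted p under 0.05 (limma, 24 arrays), where 25.5% of all probes tested were called higher and 38.4% lower. The comparison of MSC with PNCB called 18 of 18 higher, against 22.5% of all probes called higher and 27.1% lower. Ratios in MFG did not overlap with those in PNCB at any of the 18 probes, and ratios in MSC overlapped with PNCB only at MUC1 A_73_P438706, where MFG lay wholly above PNCB at 8.45% of all probes and MSC at 9.43%. The median log2 difference of these probes was 3.92 for MFG and 2.89 for MSC, beside -0.13 and -0.04 over all probes tested. Because 10 of the 18 were not above background on every blood array and entered the test through milk, these counts describe the probes and carry no weight of their own. Among the 8 member probes that were well above background on all 24 arrays, 8 were higher in each milk source, where 34% of all such probes were higher in MFG and 28.4% in MSC.

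**Figure D1:**
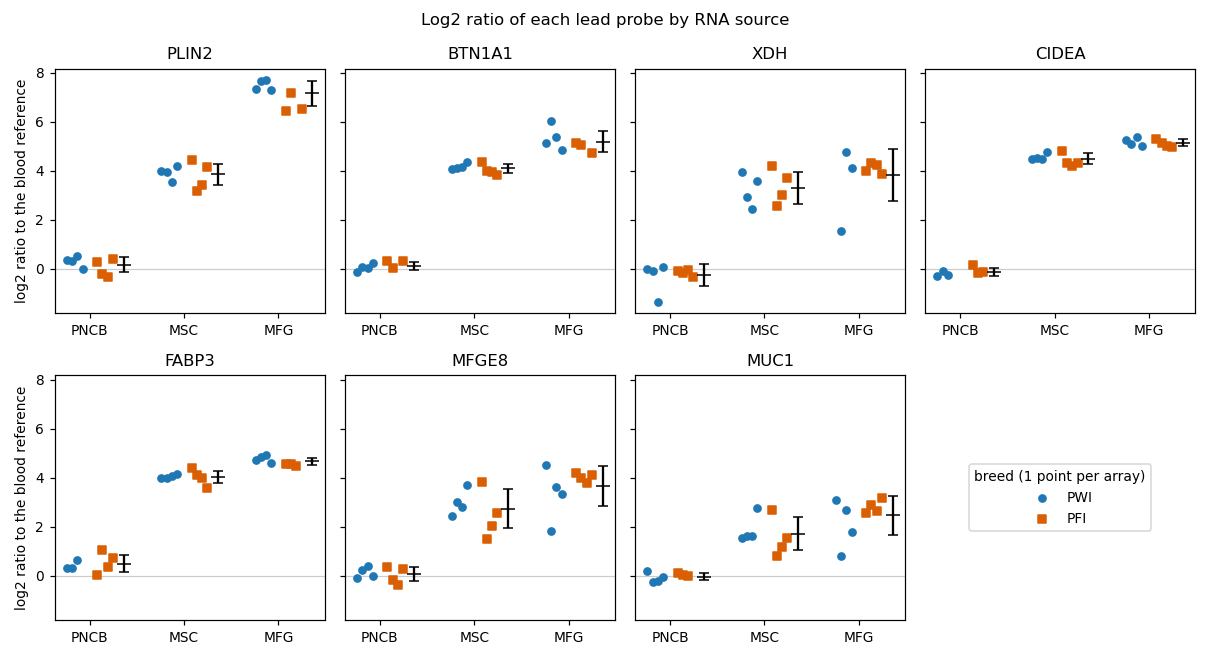
Log2 ratio of Cy5 (the sample) over Cy3 (the blood reference) at the brightest tested probe of each gene, by RNA source; each point is 1 array, circles are PWI and squares PFI, and bars are the mean and SD of the source. PNCB points lie near 0, and in each panel the milk points lie above them. MFG lies above MSC with no overlap at PLIN2, BTN1A1, FABP3 and CIDEA. With arrays only centred on their medians the difference falls below 0 at BTN1A1, FABP3 and CIDEA, and of these only CIDEA is called lower (adjusted p = 0.0345, limma).

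For each gene the tested probe with the highest mean Cy5 signal is described first and called its lead probe. Log2 ratios are those of sample over reference, net signals are brightness units after subtraction of the local background, and signals of different probes are not compared with each other.

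PLIN2, the coat protein of the lipid droplet, lay at a separate level in each of the 3 sources. Its log2 ratio ranged from -0.34 to 0.51 with a median of 0.29 in PNCB, from 3.18 to 4.44 with a median of 3.98 in MSC, and from 6.45 to 7.72 with a median of 7.30 in MFG. The MFG array of PFI goat 3 has no ratio because its spot carried an outlier flag, so MFG rests on 7 arrays here. All MFG values were above all MSC values, and all MSC values were above all PNCB values. In Cy5 net signal, PNCB ranged from 146.5 to 522, MSC from 3093 to 8040 and MFG from 37864 to 271893. The ratio was 6.95 ± 0.18 (SE) log2 units higher in MFG than in PNCB (124-fold, adjusted p = 2.87e-18, limma). MSC was 3.70 ± 0.17 (SE) higher than PNCB (13.0-fold, adjusted p = 1.43e-13, limma).

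PLIN2 also separated the milk sources from each other by the widest margin among the lead probes. MFG exceeded MSC by 3.25 ± 0.18 (SE) log2 units (9.51-fold, adjusted p = 3.21e-10, limma), and by 2.01 to 4.19 within single goats, in 7 of 7 goats measured in both. Where the ranges of MFG and MSC do not overlap, such a count of goats is fixed whatever the pairing. This holds here and at the lead probes of CIDEA, BTN1A1 and FABP3. Over the whole array, 12 of 27383 probes tested were called at least 3 log2 units higher in MFG than in MSC, which is 0.0438%. Cy5 alone gave a difference of 4.59 (24.1-fold, adjusted p = 5.66e-10, limma).

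CIDEA, the droplet-associated factor of lipid secretion, was high on every milk array. At its lead probe A_73_100290 the log2 ratio ran from -0.28 to 0.14 in PNCB (6 arrays, 2 flagged), from 4.21 to 4.81 in MSC and from 4.95 to 5.37 in MFG. The 3 ranges did not overlap. MFG was 5.27 ± 0.11 (SE) log2 units above PNCB (38.7-fold, adjusted p = 2.7e-19, limma), and MSC was 4.62 ± 0.11 (SE) above it (24.6-fold, adjusted p = 5.15e-18, limma). MFG stood 0.65 ± 0.10 (SE) above MSC (adjusted p = 3.31e-05, limma) in 8 of 8 goats, by 0.24 to 0.88 in each, but with arrays centred only on their medians it was 0.39 lower (log2 difference -0.39, adjusted p = 0.0345, limma).

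The other CIDEA probes were also higher in milk. Probe A_73_P472288 was 4.60 higher in MFG and 3.46 higher in MSC than in PNCB. Probe A_73_P436496 was 1.42 and 0.99 higher. Probe A_73_P044521, which was well above background on 0 PNCB arrays, was at least 2.10-fold higher in MFG and 1.95-fold higher in MSC on the Cy5 scale. Such bounds set the mean of the bright source against the mean of the blood arrays, each taken at its own signal or at the lowest signal well above background on that array, whichever was higher, for Cy5 signals that had gone through loess and then Aquantile normalization. They hold for that scale alone, are open to dye bias, since no dyes were swapped, and equal the measured Cy5 fold where no blood value lay under the lowest signal. Ratio folds of the same probes were smaller at every bound but that of MUC1 A_73_P397951 in MFG; for A_73_P044521 they were 1.95 and 1.67, fitted values that are no bounds.

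BTN1A1, the transmembrane protein of the globule coat, was not well above background in most blood samples at its lead probe, though it was at A_73_P419356. Its lead probe A_73_114446 met that mark on 8 of 8 MSC and 8 of 8 MFG arrays and on 1 of 8 PNCB arrays. Net Cy5 signal was 5.5 to 16 in PNCB with a median of 9.25, against 8034 to 51945 in MSC with a median of 33580 and 22344 to 43534 in MFG with a median of 33032. The log2 ratio was -0.13 to 0.32 in PNCB (7 arrays), 3.84 to 4.37 in MSC and 4.73 to 6.02 in MFG (7 arrays). In ratios the 3 sources were separate, whereas the Cy5 signals of MSC and MFG overlapped. Fitted ratios were 5.03 ± 0.15 (SE) log2 units higher in MFG (adjusted p = 6.43e-17, limma) and 3.97 ± 0.14 (SE) higher in MSC (adjusted p = 4.12e-15, limma) than in PNCB. With blood near background on 7 of 8 arrays, the size of these differences depends on the scale, and Cy5 alone gave 8.97 and 8.78.

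BTN1A1 probe A_73_P062736 was well above background on 0 PNCB arrays and was at least 33.3-fold higher in MFG and 19.7-fold higher in MSC on the Cy5 scale, whereas the ratios gave fitted folds of 17.1 and 7.94. Probe A_73_P419356, which was above background on 8 PNCB arrays, 1 of them flagged and left out, was 3.79 log2 units higher in MFG and 2.78 higher in MSC.

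XDH, the enzyme that binds butyrophilin in the coat, was not well above background on any of the 8 blood arrays. Net Cy5 signal at its probe was 3 to 7 in PNCB, 551 to 2285 in MSC and 419 to 1261 in MFG. Milk and blood did not overlap, whereas MSC and MFG did. On the Cy5 scale XDH was at least 18.1-fold higher in MFG than in PNCB and at least 16.2-fold higher in MSC. The ratios, whose size rests on a blood signal at background, gave fitted log2 differences of 4.06 (adjusted p = 2.9e-09, limma) and 3.56 (adjusted p = 2.54e-08, limma), and 7.75 and 7.95 with scanner processed signals. The log2 ratio spanned 2.43 to 4.19 in MSC and 1.53 to 4.77 in MFG, where 1.53 was the array of PWI goat 2 and the next lowest was 3.88.

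FABP3, the cytosolic fatty acid carrier, had measurable signal in blood and a far brighter one in milk. Net Cy5 signal at its lead probe A_73_111582 ran from 252.5 to 1111 in PNCB, from 39507 to 128397 in MSC and from 54443 to 141521 in MFG. The log2 ratio was 0.01 to 1.06 in PNCB, 3.57 to 4.37 in MSC and 4.48 to 4.92 in MFG, with 7 arrays in PNCB and in MFG. Ratios of the sources did not overlap. MFG was 4.17 ± 0.14 (SE) above PNCB (adjusted p = 1.06e-15, limma) and MSC 3.55 ± 0.14 (SE) above it (adjusted p = 1.75e-14, limma). The other FABP3 probes, A_73_P109351 and A_73_P378211, were 4.97 and 5.99 higher in MFG and 4.15 and 4.96 higher in MSC than in PNCB, and the first of them rests on 4 MFG arrays because 4 were flagged.

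MFGE8, the phosphatidylserine-binding glycoprotein of the globule, was above background on every array of the 3 sources. Its lead probe A_73_P044836 gave log2 ratios of -0.40 to 0.39 in PNCB with a median of 0.11, 1.49 to 3.83 in MSC with a median of 2.69, and 1.81 to 4.50 in MFG with a median of 3.89. Both milk ranges lay above blood and overlapped each other. MFG was 3.59 ± 0.31 (SE) above PNCB (12.0-fold, adjusted p = 7.85e-10, limma) and MSC 2.66 ± 0.31 (SE) above it (6.33-fold, adjusted p = 1.91e-07, limma). The second probe, A_73_P204977, gave 2.80 and 2.09.

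MUC1, the mucin of the apical membrane, was higher in both milk sources than in blood, where its lead probe was not well above background on any unflagged array. At lead probe A_73_P397951 the log2 ratio was -0.25 to 0.16 in PNCB (7 arrays), 0.79 to 2.74 in MSC and 0.79 to 3.16 in MFG. The only PNCB spot well above background there was a flagged one in PFI goat 4, which was left out. Blood did not overlap with milk, and the milk sources overlapped almost fully. On the Cy5 scale MUC1 was at least 5.26-fold higher in MFG than in PNCB and at least 4.39-fold higher in MSC. The ratios gave fitted log2 differences of 2.49 (adjusted p = 1.77e-07, limma) and 1.75 (adjusted p = 3.74e-05, limma), and 6.72 and 5.85 with scanner processed signals, so their size depends on how a signal at background is treated.

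Of the remaining MUC1 probes, A_73_P101311 failed the filter and the others were tested. Probe A_73_P350126 was 1.15 log2 units higher in MFG and 0.99 higher in MSC than in PNCB. On the Cy5 scale A_73_115084 was at least 2.63-fold higher in MFG and 1.67-fold higher in MSC, whereas the ratios gave fitted folds of 2.34 and 1.49. A_73_P438706 was at least 1.90-fold and 1.78-fold higher, with fitted log2 ratio differences of 0.84 and 0.59. The MSC call of A_73_115084 (adjusted p = 0.0234, limma) was lost with the goat as a block, where 17 of 18 probes were called, and also without PWI goat 1. That of A_73_P438706 (adjusted p = 0.0126, limma) was lost without PFI goat 1, again with 17 of 18 called. Within PWI alone the MSC calls of both probes and of CIDEA A_73_P044521 were lost (15 of 18 called), as was the MFG call of MUC1 A_73_P350126 (17 of 18). Within PFI alone the MSC calls of both probes were lost (16 of 18), and A_73_115084 also lost its MSC call with flagged spots kept (17 of 18). The untested probe A_73_P101311 had mean log2 ratios of 0.09 in MFG, 0.03 in MSC and -0.20 in PNCB, with 0 PNCB arrays well above background, so its levels were not measurable here.

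**Figure D2:**
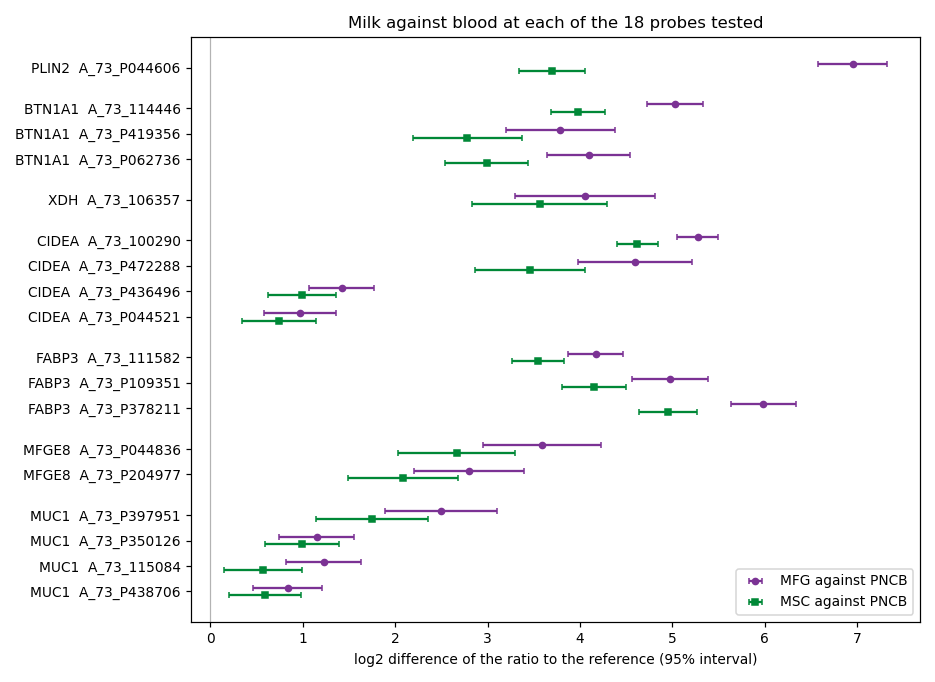
Log2 difference of the ratio to the reference between each milk source and blood at each of the 18 probes tested, with 95% intervals from limma over 24 arrays; circles are MFG against PNCB and squares MSC against PNCB. Each interval lies above 0. The differences run from 0.57 (MUC1 A_73_115084 in MSC, 95% interval 0.15 to 0.99) to 6.95 (PLIN2 in MFG, 6.58 to 7.32). Where blood was not above background (XDH, the lead probe of MUC1 and others named in the text) the size depends on the scale.

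Tested probes that share a transcript gave the same direction against blood. Where each probe was above background on all unflagged blood arrays, the MFG difference from PNCB ran from 4.17 to 5.99 over the 3 FABP3 probes and from 2.80 to 3.59 over the 2 MFGE8 probes. For CIDEA, MUC1 and BTN1A1 some probes were at background in blood, so the sizes of their differences are not compared. Probes of 1 transcript are not replicates of a condition, and where on the transcript each lies is not used here.

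The reference channel bears on the size of these ratios. Cy3 held the same blood RNA on every array, yet at the brightest lead probes its signal was higher where milk RNA shared the spot. Over unflagged arrays, the median Cy3 net signal at BTN1A1 was 571 with MSC, 715.5 with MFG and 36.0 with PNCB. At FABP3 it was 1204 with MSC, 2255 with MFG and 164 with PNCB, and at CIDEA 353, 827 and 59.5. PLIN2 differed in that Cy3 was high with MFG (355 to 1016) but lay at 121 to 158.5 with MSC, near its 93 to 129 with PNCB (Cy3 alone, MSC against PNCB, adjusted p = 0.1, limma). For the dimmer genes the MSC, MFG and PNCB medians lay nearer to each other. They were 44.8, 56.0 and 38.8 for XDH, 59.3, 78.3 and 52.0 for MFGE8, and 41.0, 43.5 and 39.0 for MUC1. Cy3 alone was called higher in MFG than in PNCB at MFGE8 (adjusted p = 0.0498, limma). It was not called at XDH (adjusted p = 0.718, limma) or MUC1 (adjusted p = 0.994, limma).

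As a share of Cy5, the median Cy3 signal with MSC and with MFG was 1.71% and 2.18% at BTN1A1, 1.61% and 2.28% at FABP3, and 1.34% and 1.96% at CIDEA. At PLIN2 it was 2.36% with MSC (1.91% to 3.91%) and 0.373% with MFG (0.319% to 0.938%), so the share was not constant. Tested alone with limma, Cy3 was higher at 10 of 18 member probes in MFG than in PNCB (19.8% of all probes) and at 8 of 18 in MSC than in PNCB (1.16% of all probes). Outside the list, 378 probes had a net Cy5 signal of at least 10000 on all 16 milk arrays. Of these, 37 had a median Cy3 under 5% of Cy5, and the median over the 378 was 35.7%. Whether Cy5 signal enters the Cy3 reading was not tested.

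With Cy5 alone, normalized between arrays by quantiles, the differences from blood at the bright lead probes were wider. MFG exceeded PNCB by 9.11 at PLIN2, 8.97 at BTN1A1, 8.77 at CIDEA and 7.75 at FABP3, where the ratios gave 6.95, 5.03, 5.27 and 4.17. At XDH, MFGE8 and MUC1 the Cy5 differences were 4.80, 4.32 and 2.90, nearer to the ratio differences of 4.06, 3.59 and 2.49. MSC exceeded PNCB in Cy5 by 8.78 at BTN1A1, 7.85 at CIDEA, 7.40 at FABP3 and 4.52 at PLIN2. Cy5 alone called 18 of 18 member probes higher in MFG (30.9% of all probes) and 18 of 18 higher in MSC (22.7% of all probes) than in PNCB.

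**Figure D3:**
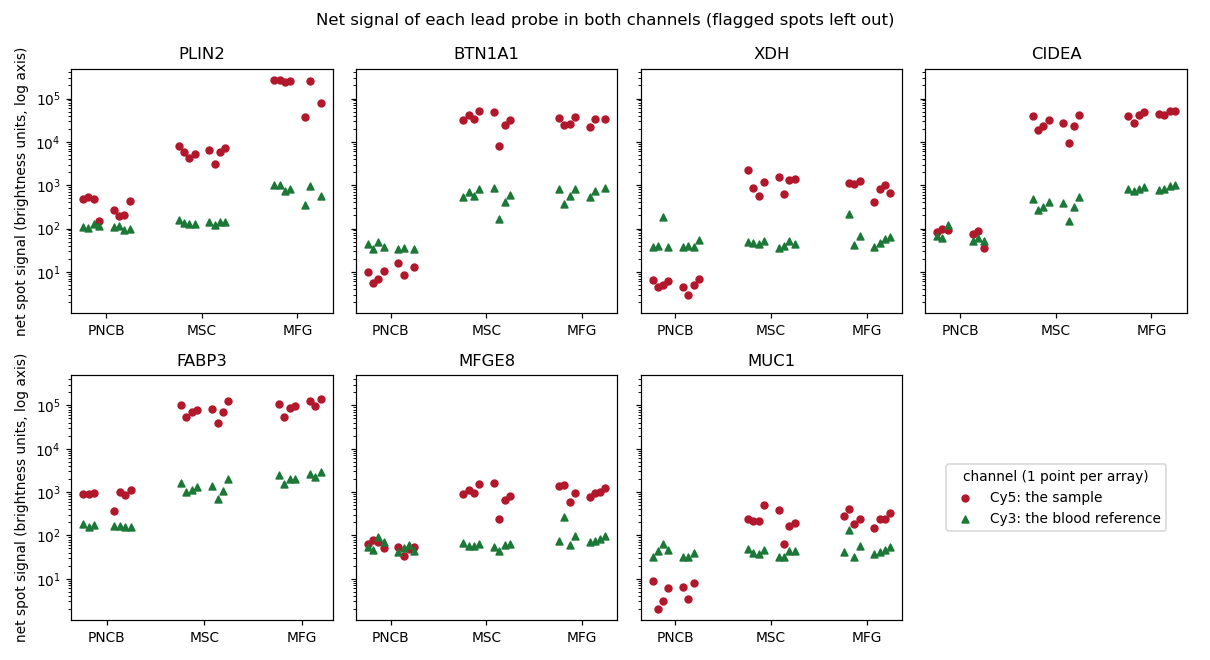
Net signal in brightness units on a log axis at the lead probe of each gene, by RNA source, with flagged spots left out; circles are Cy5 (the sample) and triangles Cy3 (the blood reference), 1 of each per array. Cy3 is higher on milk than on blood arrays at BTN1A1, CIDEA and FABP3, with MFG medians of 715.5, 827 and 2255 against 36.0, 59.5 and 164; at PLIN2 it is high with MFG alone, and for MUC1 it is nearly level (43.5 against 39.0).

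Between the milk sources, differences were smaller and less firm than against blood. MFG exceeded MSC at 12 of 18 probes (adjusted p under 0.05, limma), against 12.6% of all probes called higher and 22.2% called lower, and 0 of the 18 were called lower. The median log2 difference was 0.73 for the 18 probes and -0.02 for all probes tested. All 3 comparisons of sources share arrays with each other. Groups did not overlap at 6 probes, where 1.14% of all probes tested had MFG wholly above MSC. These were PLIN2, the lead probes of BTN1A1 and CIDEA, and the 3 FABP3 probes.

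By gene, the calls covered 3 of 3 BTN1A1 probes, the single PLIN2 probe, 3 of 3 FABP3 probes, 2 of 4 tested MUC1 probes, 2 of 4 CIDEA probes and 1 of 2 MFGE8 probes. At its lead probe BTN1A1 was 1.06 ± 0.14 (SE) log2 units higher in MFG than in MSC (adjusted p = 5.64e-06, limma), in 7 of 7 goats. FABP3 was 0.62 ± 0.14 (SE) higher (adjusted p = 0.00129, limma), in 7 of 7 goats. MFGE8 was 0.93 ± 0.31 (SE) higher (adjusted p = 0.0219, limma), in 6 of 8 goats, and MUC1 0.75 ± 0.28 (SE) higher (adjusted p = 0.0437, limma), in 5 of 8 goats. With the goat as a block, MUC1 kept its difference of 0.75 but lost its call (adjusted p = 0.0607, limma). The call of MUC1 was kept in only 7 of 22 alternatives, and that of MFGE8 in 13 of 23. XDH showed no call, with a difference of 0.50 (95% interval -0.26 to 1.25, adjusted p = 0.321, limma) and a higher MFG value in 5 of 7 goats.

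The sign of the lead difference between MFG and MSC depended on scaling for every gene but PLIN2 and MUC1. With arrays centred on their medians in place of loess, the median over all probes tested moved from -0.02 to -0.61. The lead differences then were -0.19 for BTN1A1, -0.19 for MFGE8, -0.36 for FABP3, -0.39 for CIDEA, -0.59 for XDH, 0.07 for MUC1 and 2.69 for PLIN2. Of the negative ones only that of CIDEA was called (adjusted p = 0.0345, limma). The lead probes lay above that shifted median by 0.02 at XDH, 0.22 at CIDEA, 0.25 at FABP3 and 0.42 at BTN1A1. At MFGE8 it was 0.42, at MUC1 0.68 and at PLIN2 3.30. As many of all probes lie above a median as below it, so this position is no test of direction. In this setting 1 of the 18 probes was called higher and 2 were called lower. With the signals processed by the scanner software XDH turned to -0.20 (adjusted p = 0.837, limma) and 5 of 18 probes were called.

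Cy5 alone also called 12 of 18 probes higher in MFG than in MSC (24.1% of all probes), of which 8 were called in the ratios as well. The lead probe of BTN1A1, 1.06 in the ratios, differed by 0.19 in Cy5 (95% interval -0.42 to 0.81, adjusted p = 0.6, limma), and FABP3 by 0.35 (adjusted p = 0.166, limma). The lead probe of MUC1 differed by 0.62 and was not called (adjusted p = 0.107, limma). CIDEA differed by 0.92 (adjusted p = 0.00542, limma) and MFGE8 by 1.05 (adjusted p = 0.00433, limma). XDH was called there, at 0.57 (adjusted p = 0.0467, limma). In Cy3 alone, 2 of 18 member probes were higher in MFG than in MSC, where 19% of all probes were.

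**Figure D4:**
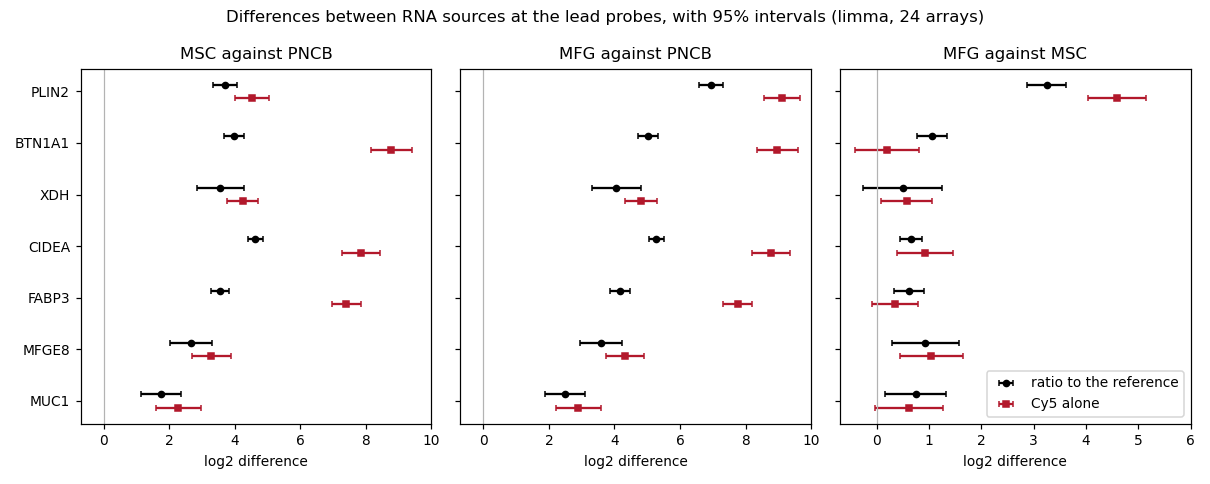
Log2 differences between sources at the lead probes with 95% intervals from limma over 24 arrays; circles are ratios to the reference and squares Cy5 alone, and the panels have different axis ranges. PLIN2 differs most between MFG and MSC, 3.25 in ratios and 4.59 in Cy5, whereas BTN1A1 moves from 1.06 in ratios to 0.19 in Cy5. In ratios that are only centred on the median BTN1A1 is at -0.19 and not called (adjusted p = 0.158, limma).

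Single arrays weighed on the comparison of milk sources. The MFG array of PWI goat 2 had the lowest MFG ratio at 10 of the 11 member probes measured on all 8 MFG arrays, and it was also the lowest at 51.8% of all such probes. Of the probes flagged on another MFG array, it was highest at the BTN1A1 lead probe, at 6.02 against 4.73 to 5.36. That array was lowest at XDH, FABP3 A_73_P378211 and CIDEA A_73_P472288, and neither at PLIN2 and the FABP3 lead probe. Its Cy3 net signal was 212.5 at XDH, 264 at MFGE8 and 132 at MUC1, where the MFG medians over unflagged arrays were 56.0, 78.3 and 43.5. Without that goat XDH was 0.93 higher in MFG (adjusted p = 0.0161, limma), and without the MFG arrays of PWI goats 2 and 4 it was 1.14 higher (adjusted p = 0.00822, limma). Those settings, the second chosen after the values were seen, called 15 of 18 probes each, as did leaving out the 3 arrays of lowest spike-in slope.

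Among MSC arrays, that of PFI goat 2 had the lowest Cy5 net signal at 16 of 18 member probes, where it was lowest at 18.5% of all probes tested. Its ratio was lowest at 8 of the 13 probes measured on all 8 MSC arrays, against 17.6% of all such probes. The highest MSC ratios were those of PFI goat 1 at 8 of 13 and of PWI goat 4 at 5 of 13, against 12.5% and 19% of all such probes. Lead differences between MFG and MSC lost their call at MFGE8 and MUC1 when PFI goat 2, 3 or 4 or PWI goat 1 or 3 was left out, with values of 0.64 to 0.93 for MFGE8 and 0.52 to 0.71 for MUC1. MUC1 A_73_115084 also lost its call without PFI goat 2 or 4 or PWI goat 1, and the 18 probes gave 9 to 10 calls in these settings.

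**Figure D5:**
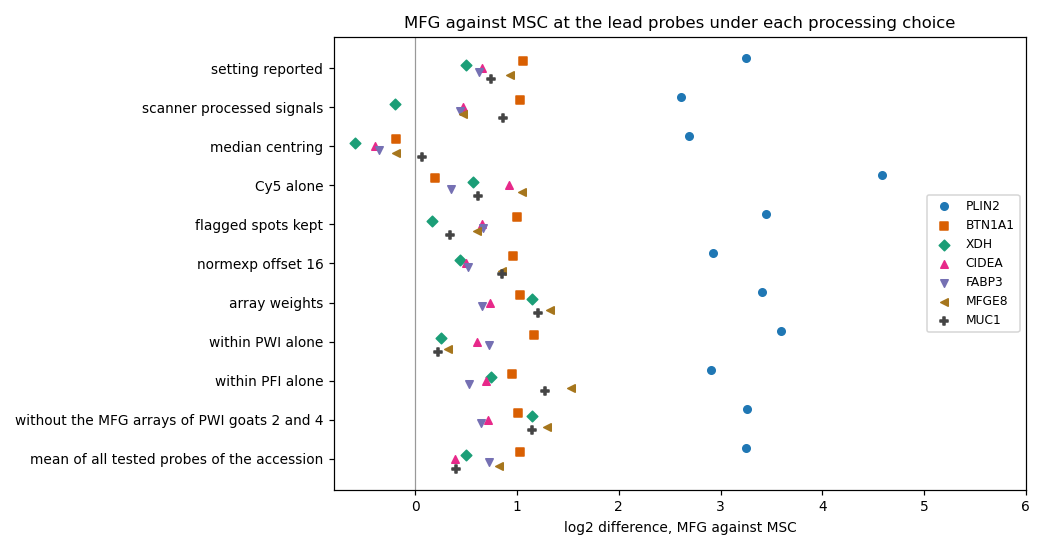
Log2 difference of MFG against MSC at the lead probe of each gene under the setting reported and 10 other choices of processing or samples; 1 symbol per gene. PLIN2 stays between 2.61 and 4.59, and the other genes lie below 0 only under median centring (BTN1A1 -0.19, MFGE8 -0.19, FABP3 -0.36, CIDEA -0.39, XDH -0.59) and, for XDH, with scanner processed signals (-0.20).

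Breed differences at these genes were not detectable with at most 4 goats each. Flagged spots lowered that number at some probes. A goat flagged in any source had no mean, which left few goats at FABP3 A_73_P109351. By limma, 0 of 18 member probes were called between PWI and PFI in MSC (0% of all probes), in PNCB (0.0109%), in MFG (0.0146%) or over the 3 sources with 1 mean per goat (0.00366%). At an unadjusted p under 0.05, the members past the mark were 0 in MSC (4.38% of all probes), 1 in PNCB (3.56%), 1 in MFG (8.58%) and 2 with a mean per goat (6.23%). Cy5 alone called 0 of 18 in each of these comparisons too. The lowest adjusted p of a member (limma) was 0.988 for MSC, 0.972 for PNCB, 0.543 for MFG and 0.782 for the means per goat.

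The intervals of these breed differences were wide in the milk sources. In PNCB and over the sources the 95% intervals of 7 of 7 lead probes lay within 2-fold, in MSC those of 4 of 7 and in MFG those of 3 of 7. The PNCB count includes XDH, MUC1 and BTN1A1, whose blood signals were at or near background and whose ratios there lie close to 0. Narrow intervals at these genes in PNCB do not show that the breeds have equal levels, and the means over the sources include the same blood values. Lead differences, PWI minus PFI, ran from -0.14 to 0.50 in MSC, from -0.19 to 0.27 in PNCB and from -0.72 to 0.81 in MFG. The widest interval was that of XDH in MFG, from -2.21 to 0.96.

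PLIN2 in MFG had the lowest breed p-value of the lead probes. The 4 PWI goats had log2 ratios of 7.36, 7.68, 7.72 and 7.30, and the 3 PFI goats with a ratio had 6.45, 7.16 and 6.50. How many of all probes separate the breeds in their ratios was not counted, so the order of these values carries no weight of its own. PWI was 0.81 ± 0.21 (SE) higher (95% interval 0.33 to 1.30), but the adjusted p was 0.543 (limma). In net Cy5 signal PFI goats 1 and 4 had 37864 and 80238, PFI goat 2 had 253508 and the PWI goats 235932 to 271893, so the breeds overlapped in that channel. The flagged spot of PFI goat 3, which has no ratio, had 245037, also within the PWI range. Because each breed's MFG arrays lay on their own slide, breed and slide cannot be told apart in this value.

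The difference between sources did not depend detectably on breed. An F-test of breed by source with limma called 0 of 18 member probes (0.0146% of all probes), with 0 at an unadjusted p under 0.05 (6.13% of all probes) and a lowest adjusted p of 0.772. Within each breed, PLIN2 was 3.59 higher in MFG than in MSC for PWI (adjusted p = 1.19e-07, limma) and 2.91 higher for PFI (adjusted p = 0.000165, limma). Against PNCB the lead differences in MFG ran from 2.19 (MUC1) to 7.22 (PLIN2) in PWI and from 2.80 (MUC1) to 6.68 (PLIN2) in PFI.

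The mean profile of the 7 lead probes over the 24 arrays, each centred on its own mean, was matched most closely by NM_001075120 (probe A_73_108260, Pearson's r = 0.995) and NM_001206527 (probe A_73_P075987, r = 0.989) among 7099 transcripts with values on all arrays. The first had mean log2 ratios of 7.04 in MFG, 5.46 in MSC and -0.04 in PNCB, and the second 4.17, 3.11 and -0.22. These arrays share their source, slide and reference, and 275 of the transcripts (3.87%) reached an r of at least 0.9, so a high r is frequent here. The files do not pair either identifier with a gene name.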

How the data were processed

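Samples were grouped by source and breed from the labels. The authors' deposited files give, for each spot, the median intensity and that of its local background in Cy5 and in Cy3, without normalization. They were written by Agilent Feature Extraction 10.7.3.1, a version the submitters' processing notes name too. They also carry deposited flags of 0 or 1 (outlier, well above background, saturated) per the file headers. The array's build and the goat gene table's differ, so no gene coordinates are given. The files hold no probe sequences, so none is printed.

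With R 4.3.3 and limma 3.58.1, spots with an outlier flag were left out, normexp with an offset of 50 corrected the background, and loess within each array normalized the ratios, with control spots at weight 0. Spots of 1 probe were averaged. The fit (lmFit, eBayes) had 24 arrays and 6 group means. P-values were adjusted by Benjamini-Hochberg over all probes tested, 27411 before probes without an estimate were dropped (27381 in the comparison of MFG with PNCB), with a threshold of 0.05. Breeds were compared on the 8 arrays of a source less any flagged spot, on 1 mean per goat, and as an F-test of the interaction. A goat without a value in any source had no mean for that probe. The script was tested on simulated data. P-values measure the spread between goats and their arrays, whose number limits the precision. In the fit of 6 group means they hold no spread between slides, since each group lay on its own slide. No spot was saturated at a member probe.

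The labels number the goats alike in each source, and each number with its breed was taken as 1 animal. Over 11555 probes, deviations from the group means correlated with a median r of 0.02 between sources of the same goat (-0.27 to 0.32, 24 pairs) and -0.0044 between different goats of a breed (72 pairs).

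The members and lists were chosen with earlier results of these data known. All 7 genes with a probe are named, with the brightest tested probe leading, and 2 transcripts of the most like pattern. Of 14 other listed genes of milk fat secretion and the listed cell markers, 0 could be paired with identifiers, so they are not analysed here. Alternatives changed the background correction, normalization, channel, flags, offset, filter, array weights, blocks, goats and breeds.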

Additional observations from a re-analysis of the deposited data

Results flagged for a closer look

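At 3 of 33 groups of 4 arrays, the log2 ratio of a lead probe in 1 goat lay far from the other 3. Chance gives about 1.65 such groups. XDH in PNCB of PWI goat 3 was at -1.37, against -0.11 to 0.07 in the other PWI goats, and its Cy3 net signal there was 184 where the PNCB median was 38.8. MUC1 in MSC of PWI goat 4 was at 2.74, against 1.53 to 1.62. CIDEA in MSC of PWI goat 4 was at 4.78, against 4.48 to 4.52.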

How the results depend on the processing

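The lead differences of both milk sources from PNCB kept their direction and their call under every alternative in which they were tested. With only probes well above background on all 24 arrays, the counts against PNCB were 8 in place of 18 for MFG and for MSC, since 8 member probes were then tested. The count of MFG against MSC, 12 of 18, was 5 with scanner processed signals, 3 with median centring (1 higher, 2 lower), 5 with flagged spots kept and 5 within PWI alone. Under median centring 4 called lead differences of MFG against MSC changed sign. By limma, BTN1A1 moved to -0.19 (adjusted p = 0.158), MFGE8 to -0.19 (adjusted p = 0.58) and FABP3 to -0.36 (adjusted p = 0.106), so these lost their call. CIDEA moved to -0.39 and was called lower (adjusted p = 0.0345, limma). XDH, which was not called in either setting, turned to -0.59 (adjusted p = 0.154, limma). PLIN2 kept its call in all 23 alternatives (2.61 to 4.59). BTN1A1 kept direction and call in 20 of 22, CIDEA in 20 of 23 and FABP3 in 18 of 23. MFGE8 kept them in 13 of 23 and MUC1 in 7 of 22. Leaving out each goat in turn gave 9 to 15 calls for MFG against MSC, 17 to 18 for MSC against PNCB and 18 for MFG against PNCB. With array weights 18 were called for MFG against MSC.

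With the goat as a replicate block, the source comparisons called 18 probes (MFG against PNCB), 17 (MSC against PNCB) and 12 (MFG against MSC), and 11 of the last were among the 12 reported. The lead probe of MUC1 lost its call and CIDEA A_73_P436496 gained one for MFG against MSC, MUC1 A_73_115084 lost its call for MSC against PNCB, and no other source call changed. In the breed comparisons, a block on the goat number, which is shared by different animals of the breeds, left 0 calls in each source.

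Signal over background limits the blood values of XDH, of the MUC1 lead probe and of 4 further probes, so their Cy5 folds are given as bounds. Only at XDH did a blood value lie under the lowest signal well above background. The other bounds equal the measured Cy5 folds and carry no interval. Slide as a random block (consensus correlation 0.0139) called 18, 18 and 11. The median over all probes tested moved for MFG against PNCB from -0.13 to -0.82 with median centring and -0.60 with scanner processed signals, and for MSC against PNCB from -0.04 to -0.17 and -0.18.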
